A study of Mus musculus with 7 samples.

Results

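The 10 genes described here encode parts of the nutrient sensors AMPK and mTOR in mouse liver. They were picked by gene symbol alone from the table of 54532 genes that holds the liver transcriptome of male C57BL/6 mice on calorie restriction (CR) or fed ad libitum (AL). Prkaa1, Prkaa2, Prkab1 and Prkag2 encode AMPK subunits. Mtor, Rptor and Deptor encode the mTOR kinase and proteins bound to it, Ddit4 and Tsc1 encode proteins that restrain mTOR complex 1, and Eif4ebp1 encodes a target of that complex. All 10 symbols were found, and all 10 passed the filter on low values, which left 12699 genes to test.

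AMPK is a kinase of 3 subunits, alpha, beta and gamma. It is switched on when AMP rises relative to ATP, and it then favours the breakdown of fuel over its storage. The mTOR kinase works in a pair of complexes. Complex 1, built around raptor, drives protein synthesis when amino acids and insulin are plentiful, while complex 2, built around rictor, phosphorylates Akt and related kinases. AMPK restrains complex 1 by phosphorylating raptor and the TSC complex, so that in the liver the pair acts as a switch between fed and fasted metabolism. Much of this control is phosphorylation, which transcript levels do not measure.

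Restriction of the CR mice began at 12 weeks of age and was deepened in weekly steps to 30%. The reference was the normal intake, weighed before the diet began. Livers of both groups were taken at 30 weeks of age, 18 weeks after the start. There were 4 CR and 3 AL livers, 1 library each, all wild-type males of C57BL/6. According to the study's methods CR mice were housed singly and given a single daily meal in the dark phase, AL mice lived in groups with food always present, and livers were taken in the afternoon. The effects of housing, meal timing and the amount eaten therefore cannot be told apart.

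Values are FPKM, fragments per kilobase of transcript scaled to sequencing depth. They are per length, so that levels of different genes can be set against each other. The number of reads in genes was 16486665 to 19900806 in CR libraries and 15641740 to 16101631 in AL libraries, and a single read in a gene of 2 kb was worth 0.025 to 0.0321 FPKM. Hepatocyte markers were high in every library, with summed levels of 45800 to 50000 FPKM in CR and 21100 to 35500 FPKM in AL livers, most of it albumin, while 1 of 6 rose and 1 fell. Over all genes 11.3% rose and 10.2% fell. Among other cells, 4 of 5 red blood cell markers rose and 1 fell (251 to 397 FPKM in CR, 152 to 198 FPKM in AL). Of 7 Kupffer cell markers 1 rose, Marco (sums of 62.9 to 205 FPKM in CR, 111 to 186 FPKM in AL). Clec4f went the other way, with means of 26.9 FPKM in CR and 45.3 FPKM in AL livers. Every CR liver lay below every AL liver for Clec4f, as in 16.8% of all genes, but it did not pass (adjusted p of 0.119, limma). Of 7 stellate cell markers 2 fell, Col1a1 and Col3a1 (sums of 31.7 to 70.2 FPKM in CR, 32.7 to 50.8 FPKM in AL). Col1a1 passed the filter only through the AL livers. Of the other stellate markers Dcn and Hand2 averaged higher in CR livers and Colec11, Lrat and Reln lower, and none passed in limma. None of 7 endothelial markers passed the test in limma (1 had an unadjusted p under 0.05), with sums of 26 to 57.7 FPKM in CR and 57.1 to 63.5 FPKM in AL livers. The only adipocyte marker above the filter, Cfd, fell, but it passed the filter only through the AL livers. It had 0, 0.331, 0 and 0 FPKM in CR livers, against 6.26, 5.87 and 3.41 FPKM in AL livers. The sum of the 5 markers was 0 to 0.504 FPKM in CR and 3.41 to 6.26 FPKM in AL livers, where nearly all of it was Cfd. Adipoq, Plin1 and Retn were under the filter, and Lep was at 0 throughout. The part of these cells in the results below was not tested, and in bulk tissue fewer cells of a type and less RNA per cell cannot be told apart.

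Of the 10 genes, 1 rose under CR and none fell. The gene that rose was Tsc1. A gene was called when its adjusted p was under 0.05 (limma on log2(FPKM + 0.1), Benjamini-Hochberg over 12699 genes). By that rule 11.3% of all genes rose and 10.2% fell, so 1 of 10 is near the share of all genes. At an unadjusted p under 0.05, Tsc1, Prkaa2 and Prkag2 passed, 3 of 10 (30%), against 35.8% of all genes, and all 3 were higher in CR livers. The median log2 fold change of the 10 was 0.13, beside -0.002 over all genes. In 1 of them every CR library lay above every AL library (Tsc1, against 17.6% of all genes), and in 1 every CR library lay below every AL library (Rptor, against 16.8%).

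**Figure D1:**
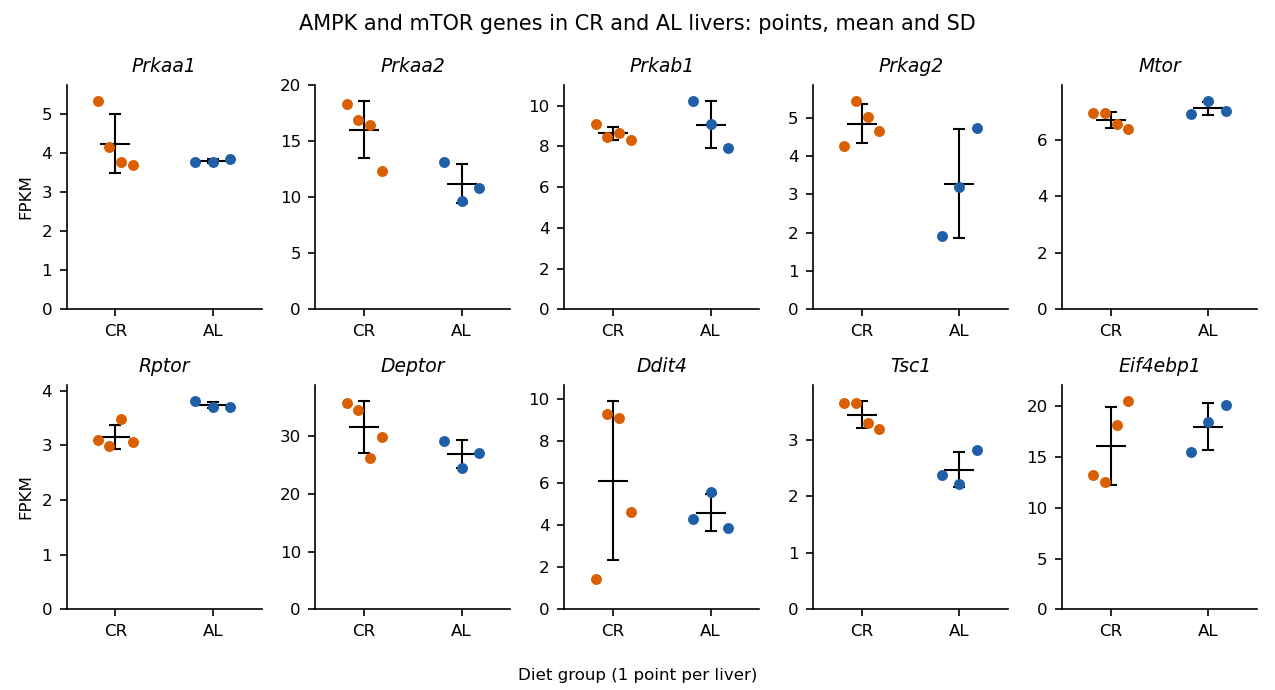
FPKM of each of the 10 genes in CR and AL livers, with 1 point per liver (4 CR, 3 AL), a bar at the mean and error bars of 1 SD. Each panel starts at 0 and has its own scale. Tsc1 and Rptor are the genes in which the points of the 2 diets do not overlap.

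The order of the 6 highest levels was the same on both diets: Deptor, Eif4ebp1, Prkaa2, Prkab1, Mtor and Ddit4. Deptor averaged 31.6 FPKM in CR and 26.9 FPKM in AL livers, and the lowest of the 10 was Rptor at 3.16 FPKM in CR livers and Tsc1 at 2.47 FPKM in AL livers. The lower places went to Prkag2, Prkaa1, Tsc1 and Rptor in CR livers, and to Prkaa1, Rptor, Prkag2 and Tsc1 in AL livers. Of the 9 neighbouring pairs in each order, 5 overlapped in CR livers (Eif4ebp1 with Prkaa2, Mtor with Ddit4, Ddit4 with Prkag2, Prkag2 with Prkaa1, and Tsc1 with Rptor) and 4 in AL livers (Prkaa2 with Prkab1, Prkaa1 with Rptor, Rptor with Prkag2, and Prkag2 with Tsc1). Overlap here means that the lowest liver of the higher gene was under the highest liver of the lower gene. Within single AL livers Prkaa2 was above Prkab1 each time (13.1 against 10.2, 9.68 against 9.10 and 10.8 against 7.91 FPKM). In the other overlapping pairs the order turned in at least 1 liver.

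Of the catalytic subunits of AMPK, the alpha2 transcript was the more abundant in every liver. Prkaa2 encodes the alpha2 subunit and lies on chromosome 4 (GRCm38, 105029874 to 105109890, minus strand). It had 18.3, 16.9, 16.5 and 12.4 FPKM in CR livers 1 to 4, against 13.1, 9.68 and 10.8 FPKM in AL livers 1 to 3. The groups overlapped only in that CR liver 4 lay below AL liver 1. The log2 fold change was 0.51 (SE 0.16, 95% interval 0.13 to 0.89), at an adjusted p of 0.0627 in limma, which missed the threshold. Without CR liver 4 Prkaa2 passed, with a log2 fold change of 0.63 and an adjusted p of 0.0265 in limma, and it also passed when the whole reads were tested (limma-voom, adjusted p of 0.0451). Of all 18 alternative settings 3 passed and 15 did not, with adjusted p of 0.0265 to 0.263 in limma. When livers were left out singly, 6 of 7 fits did not pass.

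Prkaa1, the alpha1 subunit (chromosome 15, 5143861 to 5181899, plus strand), had 5.33, 4.15, 3.79 and 3.70 FPKM in CR livers, against 3.79, 3.77 and 3.86 FPKM in AL livers. CR liver 1 stood highest, CR livers 3 and 4 lay among or under the AL livers, and the AL livers hardly differed from each other. Prkaa1 did not pass (log2 fold change 0.14, 95% interval -0.19 to 0.47, adjusted p of 0.531, limma). The summed catalytic transcript came to 20.3 ± 3.14 FPKM in CR livers (SD, n = 4) and 15.0 ± 1.76 FPKM in AL livers (SD, n = 3). Prkaa1 made up 22.6%, 19.7%, 18.7% and 23.0% of it in CR livers and 22.4%, 28.0% and 26.2% in AL livers. The ranges overlapped. The difference in the share was -4.56 percentage points and did not pass (exact permutation test, two-sided, p = 0.14, 0.29 after adjustment over 6 such shares).

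Prkab1, which encodes the beta1 subunit that holds the kinase together and binds glycogen (chromosome 5, 116013586 to 116024508, minus strand), had 9.10, 8.45, 8.66 and 8.34 FPKM in CR livers, against 10.2, 9.10 and 7.91 FPKM in AL livers. All 4 CR livers lay within the span of the AL livers, and Prkab1 did not pass (log2 fold change -0.06, 95% interval -0.32 to 0.19, adjusted p of 0.715, limma). Prkab1 supplied nearly all of the beta transcript, 93.7 ± 0.674% in CR livers (SD, n = 4) and 92.9 ± 0.782% in AL livers (SD, n = 3), with Prkab2 the remainder. The gene overlaps Gm14508, which had 0.657 FPKM on the opposite strand.

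Prkag2 encodes the gamma2 subunit, which binds AMP and ATP (chromosome 5, 24862744 to 25100642, minus strand). It had 4.27, 5.43, 5.03 and 4.66 FPKM in CR livers, against 1.92, 3.18 and 4.74 FPKM in AL livers. The CR livers were close together, while the AL livers spanned 2.46-fold and AL liver 3 lay among the CR livers. The log2 fold change was 0.63 (SE 0.27, 95% interval 0.01 to 1.25) and did not pass (adjusted p of 0.134, limma). Without AL liver 3 it was 0.94, at an adjusted p of 0.0228 in limma, and 17 of the 18 alternatives did not pass (0.0228 to 0.328 over all 18). Prkag2 accounted for 50.3%, 61.1%, 44.1% and 42.7% of the summed Prkag1 and Prkag2 in CR livers, against 32.6%, 39.0% and 51.4% in AL livers, which overlapped (exact permutation test, p = 0.29). Prkag1, the other gamma subunit of liver, had a log2 fold change of 0.14 (adjusted p of 0.707, limma), and the muscle form Prkag3 was under the filter.

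The transcript of the mTOR kinase had the narrowest interval of the 10. Mtor (chromosome 4, 148448611 to 148557683, plus strand) had 6.95, 6.96, 6.55 and 6.39 FPKM in CR livers, against 6.93, 7.37 and 7.04 FPKM in AL livers. CR livers 1 and 2 lay within the span of the AL livers, and CR livers 3 and 4 just below it. The mean was 6.72 ± 0.289 FPKM in CR (SD, n = 4) and 7.11 ± 0.231 FPKM in AL (SD, n = 3), a log2 fold change of -0.08 (95% interval -0.29 to 0.12, adjusted p of 0.547, limma). The residual SD of Mtor, 0.056 on the log2 scale, was at the 0.906 percentile of all genes tested, so that few genes varied less between livers of the same diet. Mtor also overlaps Gm23318, with 1.44 FPKM on the same strand.

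Raptor, the scaffold that brings substrates to mTOR complex 1, is encoded by Rptor (chromosome 11, 119602905 to 119899576, plus strand). Rptor had 3.09, 2.98, 3.48 and 3.06 FPKM in CR livers, against 3.81, 3.70 and 3.71 FPKM in AL livers. Every CR liver lay below every AL liver. The log2 fold change was -0.24 (SE 0.11, 95% interval -0.49 to 0.003), with an adjusted p of 0.144 in limma, which did not pass, and none of the 18 alternatives did (0.106 to 0.377).

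Rictor, which marks complex 2, rose to 2.28, 2.47, 2.51 and 2.16 FPKM in CR livers, against 1.68, 1.59 and 1.67 FPKM in AL livers (log2 fold change 0.49, adjusted p of 0.0284, limma). The call did not hold without AL livers 1 or 2 or CR livers 1, 2 or 3 (adjusted p of 0.0577 to 0.101 in limma), and 9 of 18 alternatives passed. Set against each other in the same library, the share of Rptor in the summed Rptor and Rictor was 57.6%, 54.8%, 58.2% and 58.7% in CR livers, against 69.5%, 70.0% and 68.9% in AL livers. The groups did not overlap. The difference of -12.2 percentage points had an exact permutation p of 0.029, two-sided, which is the smallest that 35 assignments of 4 and 3 livers allow, and 0.086 after adjustment over the 6 shares. It stayed between -12.6 and -11.3 points when each liver was left out in turn. Every CR liver lay below every AL liver for Rptor and above for Rictor, so the shares could not overlap. The share test therefore adds no support beyond the levels of the genes themselves. With this smallest p, a share that differed alone could not pass after adjustment over the 6 shares. A share within a library does not depend on the scaling between libraries.

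**Figure D2:**
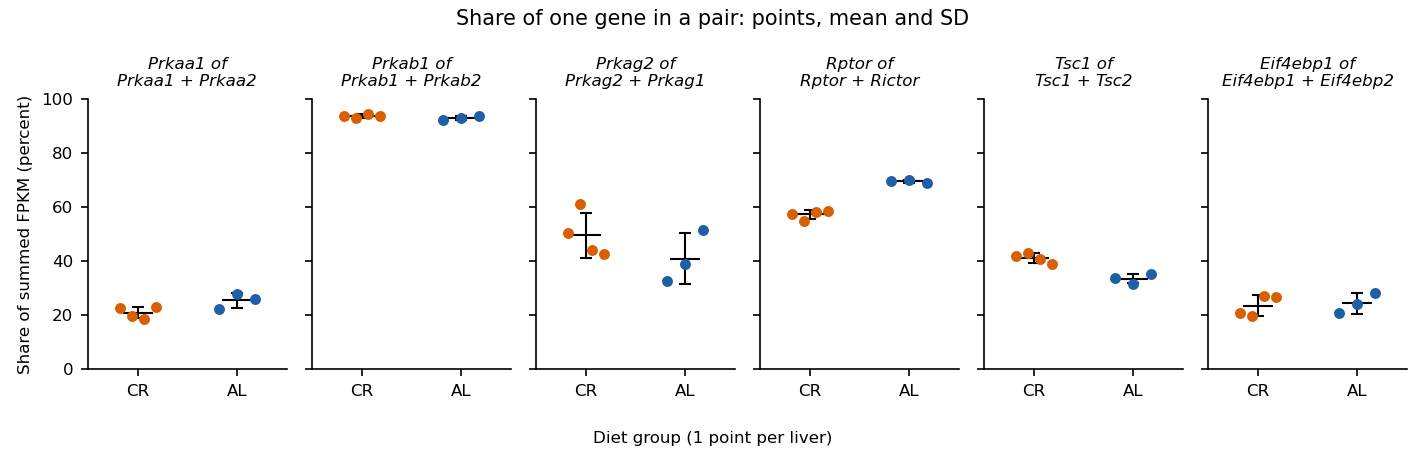
Share of 1 gene in the summed FPKM of 2 related genes, in percent, in CR and AL livers, with 1 point per liver, a bar at the mean and error bars of 1 SD. The shares of Rptor (57.3 ± 1.74% in CR, 69.5 ± 0.533% in AL) and of Tsc1 (41.1 ± 1.79% in CR, 33.6 ± 1.8% in AL) do not overlap between diets, and the other 4 do.

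Deptor, which binds mTOR and inhibits it in both complexes, was the most abundant of the 10 (chromosome 15, 55112317 to 55259271, plus strand). It had 35.8, 34.6, 26.1 and 29.8 FPKM in CR livers, against 29.2, 24.5 and 27.0 FPKM in AL livers. CR livers 1 and 2 were the highest, and CR liver 3 lay within the AL span. Deptor did not pass (log2 fold change 0.22, 95% interval -0.09 to 0.54, adjusted p of 0.278, limma).

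Ddit4 encodes REDD1, a short-lived protein that is induced by stress and glucocorticoids and acts on complex 1 through TSC (chromosome 10, 59949669 to 59951834, minus strand). It was the most variable of the 10. Its level was 1.46, 9.30, 9.08 and 4.61 FPKM in CR livers, against 4.30, 5.57 and 3.87 FPKM in AL livers, from 51, 267, 273 and 162 reads in CR and 123, 166 and 106 reads in AL. CR livers 2 and 3 lay above all AL livers, CR liver 1 lay below them, and CR liver 4 among them. The highest CR liver was 6.35 times the lowest, while the AL livers spanned 1.44-fold. The log2 fold change was 0.12 (SE 0.59, 95% interval -1.25 to 1.48, adjusted p of 0.904, limma), so neither a rise nor a fall of about 2-fold lies outside the interval. Its sign turned without CR liver 2 (-0.18) or CR liver 3 (-0.17).

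Tsc1 encodes hamartin, which stabilises tuberin in the complex that turns off the GTPase Rheb and so restrains mTOR complex 1. The gene lies on chromosome 2 (28641228 to 28691167, plus strand). Tsc1 had 3.64, 3.65, 3.30 and 3.19 FPKM in CR livers, against 2.37, 2.22 and 2.81 FPKM in AL livers. All CR livers lay above all AL livers, and the gap between CR liver 4 and AL liver 3 was the narrowest. The mean was 3.44 ± 0.236 FPKM in CR (SD, n = 4) and 2.47 ± 0.309 FPKM in AL livers (SD, n = 3), 1.39-fold higher, with a log2 fold change of 0.47 (SE 0.13, 95% interval 0.18 to 0.76) and an adjusted p of 0.0362 in limma.

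The Tsc1 call was close to the threshold. The log2 fold change stayed between 0.36 and 0.56 in 18 alternative settings, but only 8 of them passed. Over all 18 the adjusted p ran from 0.0207 to 0.176 in limma. Without AL liver 1 the adjusted p of Tsc1 was 0.103, without AL liver 2 it was 0.131, and without CR livers 1, 2, 3 or 4 it was 0.0847, 0.0893, 0.0658 and 0.0533, all from limma. Only without AL liver 3 did it still pass (0.0216).

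The partner of hamartin did not move with it. Tsc2 had a log2 fold change of 0.02 (SE 0.09, adjusted p of 0.890, limma). The share of Tsc1 in the summed Tsc1 and Tsc2 was 41.8%, 43.0%, 40.7% and 38.8% in CR livers, against 33.7%, 31.7% and 35.3% in AL livers, with no overlap. The difference was 7.48 percentage points (exact permutation p = 0.029, the smallest possible, and 0.086 adjusted over 6 shares) and ran from 6.56 to 8.36 points when each liver was left out. With this smallest p, a share that differed alone could not pass after the adjustment. Tsc2 hardly differed between diets, so the share repeats the separation of Tsc1 and adds no support of its own. Over the 7 libraries the genes whose profile was closest to that of Tsc1 were Ap5m1, Vps54 and Galm, with mean absolute differences of 0.023, 0.029 and 0.037 on the log2 scale. Their log2 fold changes were 0.46, 0.45 and 0.46, and this likeness was not tested.

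The 250 bases before the RefSeq start of Tsc1 are shown because Tsc1 was the member that passed the test. They lie at chr2:28640983-28641232 on the plus strand of GRCm38.p6, and hold none of the 4 motifs searched, so no letters are in capitals.
Tsc1: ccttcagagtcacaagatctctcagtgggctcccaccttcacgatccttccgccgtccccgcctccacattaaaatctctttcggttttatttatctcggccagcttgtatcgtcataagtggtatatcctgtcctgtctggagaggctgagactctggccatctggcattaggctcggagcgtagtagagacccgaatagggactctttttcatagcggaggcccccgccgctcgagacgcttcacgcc

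The motifs were searched on both strands of the same window of every gene in the RefSeq table, 32851 windows in all. The letters CACGTG, the core bound by many helix-loop-helix factors including TFEB, were present in 6.02% of the windows. TGACGTCA, the core bound by CREB and its relatives, was present in 1.55%. The FoxO core GTAAACA was present in 3.17%, and the core of ATF4 sites, TGATGNAA, in 3.45%. Windows were found for 8 of the 10 genes (10 windows), and none held any of the 4. This says only that these letters are not in these windows.

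Eif4ebp1 encodes a repressor of translation that binds the cap-binding protein eIF4E until mTOR complex 1 phosphorylates it (chromosome 8, 27260329 to 27276674, plus strand). It had 13.3, 12.6, 18.1 and 20.5 FPKM in CR livers, against 15.5, 18.4 and 20.1 FPKM in AL livers. CR livers 1 and 2 were the lowest of all and CR liver 4 the highest. Eif4ebp1 did not pass (log2 fold change -0.18, 95% interval -0.63 to 0.27, adjusted p of 0.546, limma). Eif4ebp1 was the smaller part of the summed Eif4ebp1 and Eif4ebp2, 23.5 ± 3.89% in CR livers (SD, n = 4) and 24.4 ± 3.81% in AL livers (SD, n = 3), which differed by -0.845 points (exact permutation p = 0.77).

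**Figure D3:**
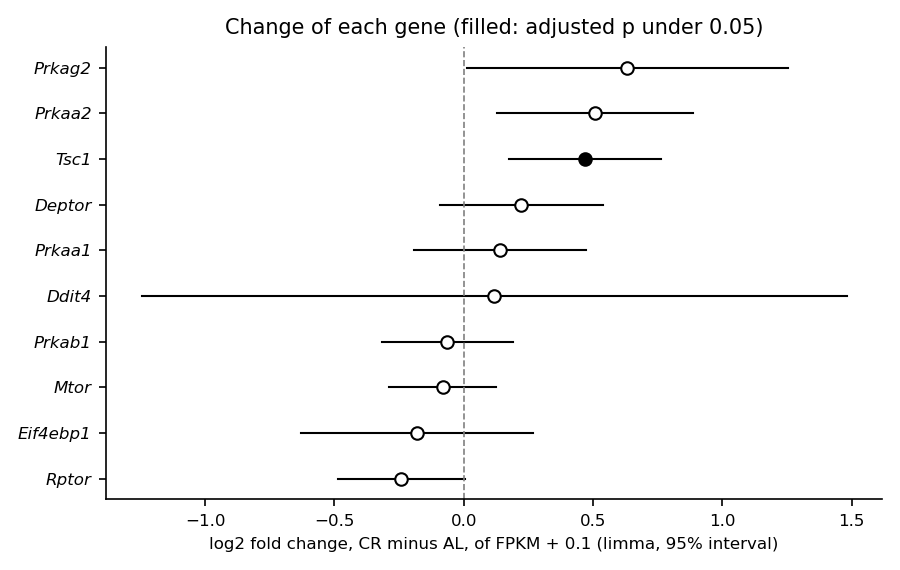
Log2 fold change of each of the 10 genes, CR minus AL, on log2(FPKM + 0.1), with its 95% interval from limma. Tsc1 (0.47) is filled because its adjusted p was under 0.05. Ddit4 has the widest interval (-1.25 to 1.48) and Mtor the narrowest.

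Other genes of the 2 pathways were read from lists of 81 genes arranged by role, of which 73 were tested. Of these 12 rose (16.4%, against 11.3% of all genes) and 4 fell (5.48%, against 10.2%), and the median log2 fold change was 0.06. At an unadjusted p under 0.05 there were 26 (35.6%), against 35.8% of all genes. In 19 every CR liver lay above every AL liver (26.0%, against 17.6% of all genes), and in 9 every CR liver lay below (12.3%, against 16.8%). By role, AMPK subunits, TSC and Rheb, and the stress regulators of complex 1 held no gene that passed in limma, nor any at an unadjusted p under 0.05. The Rag GTPases, the Ragulator and folliculin complexes and Slc38a9 held 5 that rose of 11 tested (median log2 fold change 0.39), the GATOR complexes and amino acid sensors 3 that fell of 17 (0.02), AMPK substrates 3 that rose of 8 (0.33), mTOR complex 1 substrates 2 that rose of 14 (0.08), the kinases upstream of AMPK 1 that rose and 1 that fell of 7 (0.21), and the mTOR complexes 1 that rose of 8 (-0.22).

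**Figure D4:**
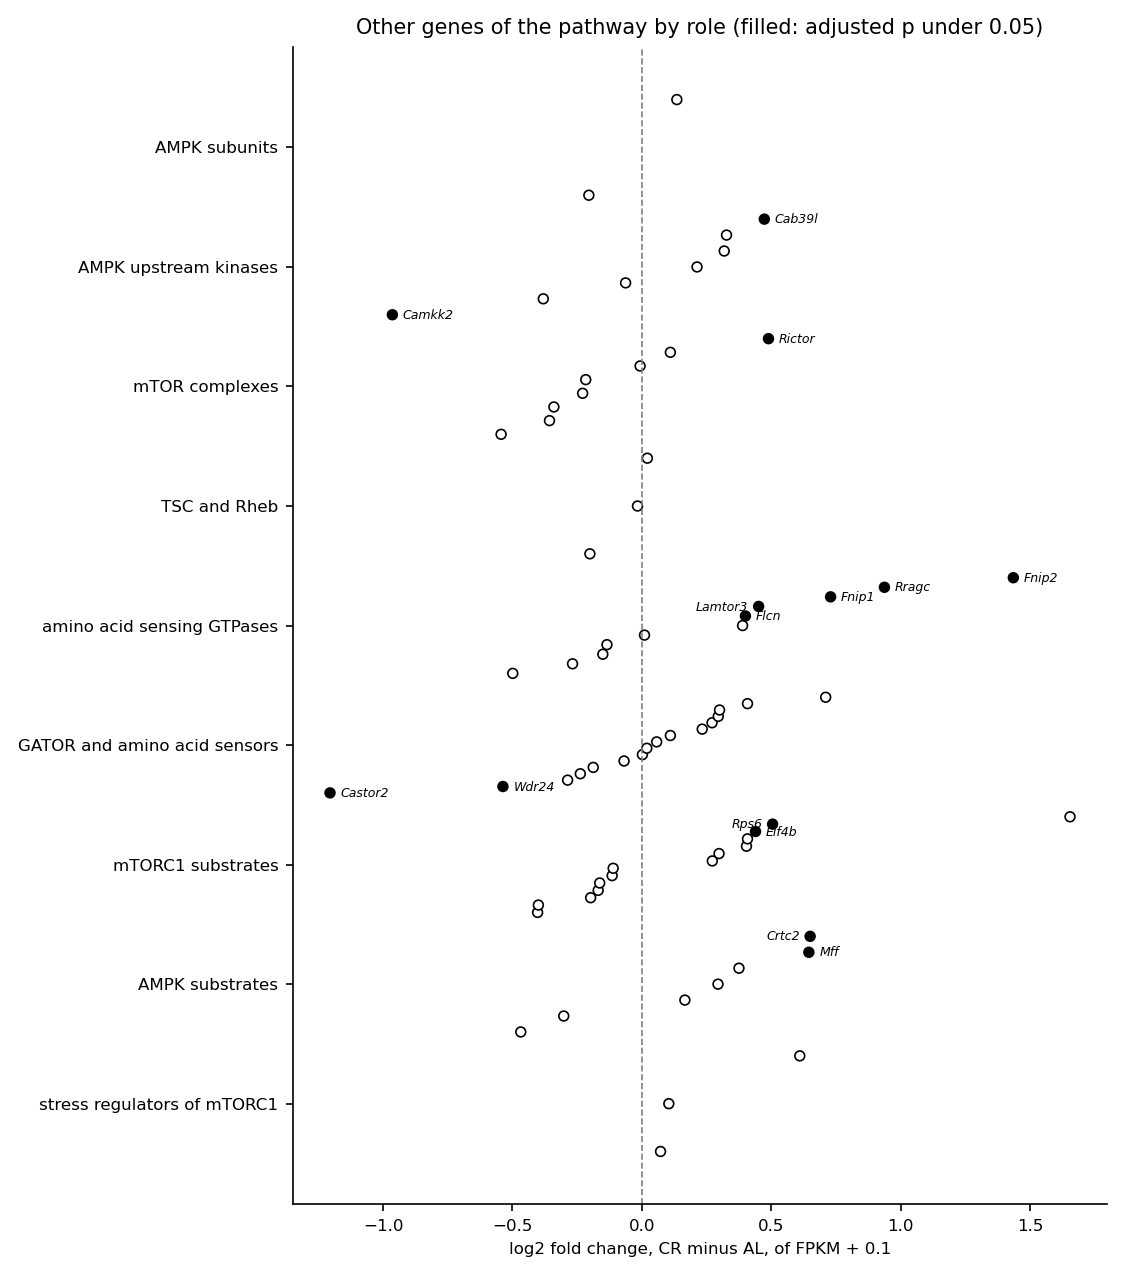
Log2 fold change, CR minus AL, on log2(FPKM + 0.1), of 71 other pathway genes in 9 roles. Filled points had an adjusted p under 0.05 in limma (11 higher in CR, 3 lower), and the height of a point within its row is its rank and has no unit.

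The Rag GTPases carry mTOR complex 1 to the lysosome when amino acids are plentiful, and folliculin with its partners Fnip1 and Fnip2 is the GTPase-activating complex for RagC. Rragc, which encodes RagC, rose to 23.7, 24.2, 22.02 and 16.5 FPKM in CR livers, against 10.5, 10.1 and 12.9 FPKM in AL livers, a log2 fold change of 0.94 (adjusted p of 0.00724, limma). Fnip1 had 10.5, 10.3, 10.3 and 9.97 FPKM in CR livers, against 5.06, 6.15 and 7.44 FPKM in AL livers, and Fnip2 had 8.07, 8.89, 6.46 and 6.53 FPKM in CR livers, against 1.44, 2.72 and 4.86 FPKM in AL livers. Their log2 fold changes were 0.73 (adjusted p of 0.00885) and 1.44 (0.0269). Flcn itself rose less (11.2 ± 0.456 FPKM in CR livers, SD, n = 4, and 8.49 ± 1.36 FPKM in AL livers, SD, n = 3), with a log2 fold change of 0.40 and an adjusted p of 0.0482 in limma. The Ragulator subunit Lamtor3 rose by 0.45 on the log2 scale (adjusted p of 0.0465, limma). In all 5 the groups did not overlap, and in 17.6% of all genes every CR library lay above every AL library. These 5 were named because they passed, so the lack of overlap adds no further support.

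Rragc and Fnip1 passed without any single liver (highest adjusted p of 0.0379 and 0.0398 in limma). Fnip2 did not pass without AL liver 2 or CR livers 1 or 2 (0.0627 to 0.0817), and both Flcn and Lamtor3 depended on more. Flcn passed only without AL liver 2 (0.0827 to 0.152 without any other liver), and Lamtor3 only without AL liver 1 (0.0533 to 0.139 without any other). Rragb and Rragd were under the filter and were not tested. The other tested members of the lysosomal group did not pass. Lamtor2, the most abundant of them, had 18.8, 19.6, 26.0 and 30.4 FPKM in CR livers, against 32.3, 34.1 and 32.2 FPKM in AL livers (log2 fold change -0.50, adjusted p of 0.0822, limma).

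The windows before the starts of Rragc, Fnip1 and Flcn are shown because these 3 genes, which act in a single GTPase step, each rose and hold a searched motif, in capitals. Fnip2 rose more, and its window holds none of the 4. The windows of Rictor, Mff, Cab39l, Eif4b and Rps6, which also rose, hold none either. The window of Rheb holds CACGTG too, and Rheb did not pass in limma (log2 fold change -0.02).
Rragc: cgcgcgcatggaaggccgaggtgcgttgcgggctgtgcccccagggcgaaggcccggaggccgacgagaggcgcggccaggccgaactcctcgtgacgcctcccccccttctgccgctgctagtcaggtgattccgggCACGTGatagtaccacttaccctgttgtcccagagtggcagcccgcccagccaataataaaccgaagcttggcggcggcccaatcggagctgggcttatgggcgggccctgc
Fnip1: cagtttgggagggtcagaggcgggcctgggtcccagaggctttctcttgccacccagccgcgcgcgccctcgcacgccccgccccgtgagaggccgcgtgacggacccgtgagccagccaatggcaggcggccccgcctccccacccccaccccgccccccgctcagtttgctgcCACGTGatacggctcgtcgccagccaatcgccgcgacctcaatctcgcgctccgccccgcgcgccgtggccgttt
Flcn: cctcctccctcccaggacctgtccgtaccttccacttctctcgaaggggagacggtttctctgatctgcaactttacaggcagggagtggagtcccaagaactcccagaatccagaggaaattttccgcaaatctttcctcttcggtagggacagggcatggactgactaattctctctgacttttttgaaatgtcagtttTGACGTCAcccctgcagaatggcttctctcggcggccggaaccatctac

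These windows are chr4:123917183-123917432 (plus strand), chr11:54437929-54438178 (plus strand) and chr11:59810040-59810289 (minus strand) of GRCm38.p6, from RefSeq. The CACGTG motif began 112 bases before the start of Rragc and 75 bases before that of Fnip1, and the CREB core began 49 bases before that of Flcn. These genes were chosen after their values and matches were seen, and a match is not evidence of binding.

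Of the GATOR complexes and the sensors that act on them, 3 of 17 genes fell in limma (17.6%, against 10.2% of all genes). None rose, against 11.3% of all genes, and these shares were not tested against each other. Wdr24, of the GATOR2 complex that relays amino acid sufficiency, had 3.45, 3.63, 3.74 and 3.799 FPKM in CR livers, against 5.19, 5.28 and 5.57 FPKM in AL livers (log2 fold change -0.54, adjusted p of 0.00808, limma). It passed without any single liver. Castor2, a paralog of the arginine sensor Castor1, averaged 0.392 ± 0.148 FPKM in CR livers (SD, n = 4) and 1.01 ± 0.214 FPKM in AL livers (SD, n = 3), with an adjusted p of 0.0342 in limma. Castor2 passed the filter on low values only through the AL livers, and CR livers 1, 3 and 4 lay under 0.5 FPKM. Under the filter of 1 FPKM in every library it was not tested. The call of Castor2 did not hold without AL livers 1, 2 or 3 or CR livers 1 or 4 (adjusted p of 0.0558 to 0.110 in limma). Sar1b, which couples leucine sensing to GATOR and is better known for export from the endoplasmic reticulum, was the most abundant of its list and had a log2 fold change of 0.00.

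**Figure D5:**
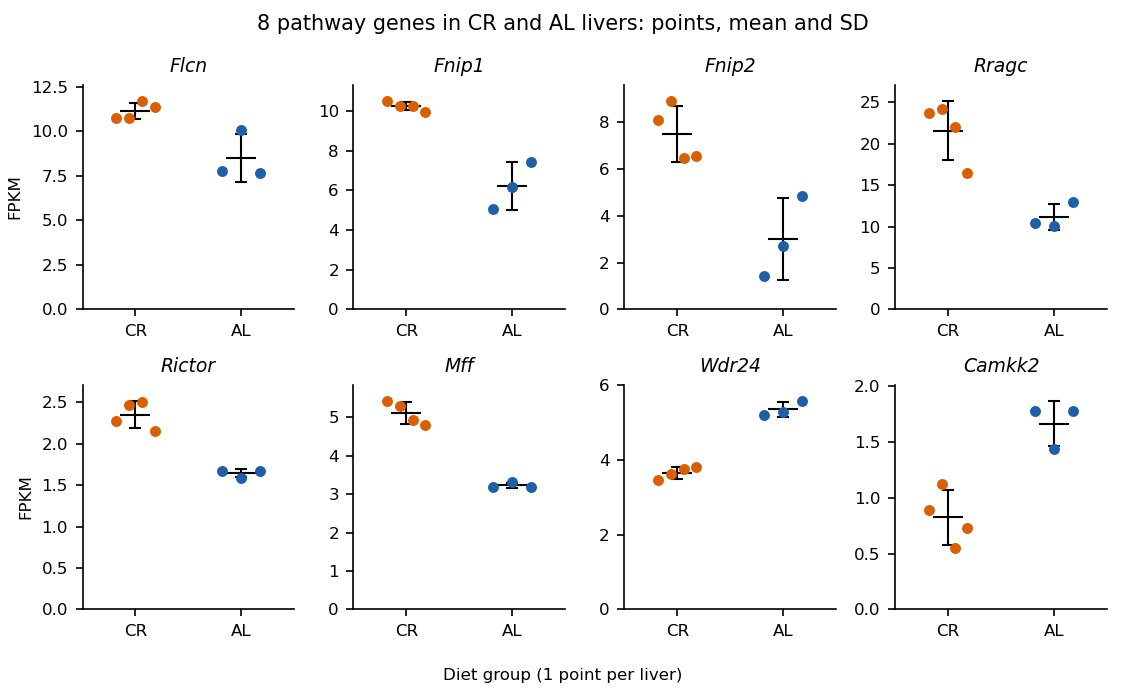
FPKM of 8 pathway genes in CR and AL livers, with 1 point per liver, a bar at the mean and error bars of 1 SD. Flcn, Fnip1, Fnip2, Rragc, Rictor and Mff were higher in CR livers, and Wdr24 and Camkk2 lower, with no overlap between diets in any panel. All 8 are genes that passed. Over all genes, every CR library lay above every AL library in 17.6% and below in 16.8%.

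Of the kinases upstream of AMPK, Camkk2, the calcium-dependent kinase, fell to 0.895, 1.13, 0.551 and 0.732 FPKM in CR livers, against 1.78, 1.43 and 1.78 FPKM in AL livers (log2 fold change -0.96, adjusted p of 0.0278, limma). It did not pass without AL livers 1, 2 or 3 or CR liver 4 (0.0604 to 0.0929). Camkk2 was low, with CR livers 1, 3 and 4 under 1 FPKM. Under the filter of 1 FPKM in every library it was not tested, and 10 of the remaining 17 alternatives passed. Cab39l, a partner of the main upstream kinase LKB1, rose by 0.47 on the log2 scale (adjusted p of 0.0483, limma) and when livers were left out passed only without CR liver 3 (0.0671 to 0.158 without any other). Cab39l overlaps Cdadc1, at 6.84 FPKM on the other strand. LKB1 itself, encoded by Stk11, had 12.3, 10.4, 16.2 and 14.8 FPKM in CR livers, against 17.3, 18.1 and 16.4 FPKM in AL livers, without overlap, and did not pass (-0.38, adjusted p of 0.122, limma).

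Among substrates of AMPK, Mff, a receptor for mitochondrial fission, rose to 5.42, 5.29, 4.92 and 4.80 FPKM in CR livers, against 3.19, 3.31 and 3.18 FPKM in AL livers (adjusted p of 0.00444, limma). Crtc2, a coactivator of CREB in gluconeogenesis, averaged 11.3 ± 1.03 FPKM in CR livers (SD, n = 4) and 7.19 ± 1.20 FPKM in AL livers (SD, n = 3), a log2 fold change of 0.65 (adjusted p of 0.0148, limma). Both passed without any single liver. The acetyl-CoA carboxylases Acaca and Acacb did not pass, with log2 fold changes of 0.29 and -0.47.

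Downstream of mTOR complex 1, Rps6, a ribosomal protein phosphorylated by S6 kinase, had 208.3, 226.5, 267.3 and 219.2 FPKM in CR livers, against 160.2, 164.1 and 160.5 FPKM in AL livers (adjusted p of 0.01996, limma). Of its transcript, 40.7% of the 100-base words occur in other transcripts too, so its count is uncertain. Without AL livers 1 or 2 Rps6 did not pass (0.0717 and 0.0714). The initiation factor Eif4b averaged 67.8 ± 4.77 FPKM in CR livers (SD, n = 4) and 50.1 ± 5.77 FPKM in AL livers (SD, n = 3), a log2 fold change of 0.44 (adjusted p of 0.0333, limma), and its call did not hold when any of the 7 livers was left out (0.0533 to 0.0769). The most abundant genes of the remaining lists, Akt1s1 and Rheb, did not pass (log2 fold changes of -0.23 and -0.02), nor did the stress factor Atf4 (0.10).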

How the data were processed

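Liver RNA of 4 CR and 3 AL mice was sequenced, 1 library per mouse, and diet and replicate number were taken from the sample labels. The values are FPKM, as deposited by the authors in 1 table. In the submitters' processing notes the tools are CASAVA 2.19, HISAT2 2.0.5 and featureCounts 1.5.0-p3, and the build is GRCm38 (mm10). How FPKM was computed and whether counting used strand are not given in the sources used here. Multiplied by gene length, the FPKM of every library came out as whole reads within 2e-04 reads. No libraries were duplicates (lowest chi-square per gene 15.6).

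A gene was tested if it reached 0.5 FPKM in 3 or more of the 7 libraries. Values of log2(FPKM + 0.1) were fitted in R 4.3.3 with limma 3.58.1 and statmod 1.5.0, using a variance trend and robust estimation. Tests were two-sided, adjusted by Benjamini-Hochberg, with a threshold of 0.05. A fold change on this scale understates that of low genes. Shares of a gene in a pair were compared with an exact permutation test (scipy 1.17.1). The fit was tested on simulated data. Alternatives were pseudocounts of 1 and 0.01, other filters and scalings, limma without trend, limma-voom on whole reads (1469 genes higher and 1401 lower in CR), a replicate block and leaving out each library. Leaving out CR libraries 1 and 2, or 3 and 4, was chosen after seeing the data. The pathway genes named were those that passed and the most abundant of each list, and a few others named beside them were chosen after their values were seen. Some genes that count in the totals of the pathway lists are not reported here by name or drawn. The members and lists were chosen with earlier results of these data known. Promoter windows came from RefSeq (GRCm38.p6), and gene coordinates from the deposited table.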

Additional observations from a re-analysis of the deposited data

How the results depend on the processing

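Counts of genes that passed depended on the setting. Over all genes (1433 higher and 1291 lower in CR) they were 482 and 508 with a replicate block, 627 and 642 without CR livers 1 and 2, 782 higher without CR livers 3 and 4, and 669 to 1514 higher and 540 to 1149 lower when each liver was left out. Without a filter 986 and 910 passed. Of the 10 genes (1 higher) none was higher with the block, without the filter or without CR livers 1 and 2, 2 were with limma-voom, and 0 to 2 when each liver was left out, and none was lower in any setting. Of the other pathway genes (12 higher and 4 lower) 2 and 0 passed with the block, 6 and 1 without the filter, 3 and 1 without CR livers 1 and 2, 6 higher without CR livers 3 and 4, and 5 to 9 higher and 1 to 6 lower when each liver was left out, while 2 were lower under a filter of 1 FPKM in every library.

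The labels number replicates of both diets, but livers of the same number did not deviate together (correlations of 0.031, -0.044 and -0.057), and AL livers 2 and 3 correlated best with CR livers of another number, so the numbers are not taken as pairs. With the replicate block the adjusted p of Tsc1 was 0.133 in limma.

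Small log2 fold changes turned sign. That of Sar1b was -0.006 under median-of-ratios scaling, -0.028 with the block, -0.014 without CR livers 1 and 2, and -0.034 to 0.044 when each liver was left out. When each liver was left out Prkab1 ran from -0.158 to 0.025, Rheb from -0.094 to 0.061, Atf4 from -0.020 to 0.170 and Ddit4 from -0.184 to 0.678. Without CR livers 1 and 2 Prkaa1 was -0.022, Eif4ebp1 0.107 and Rheb 0.050, and without CR livers 3 and 4 Ddit4 was -0.272 and Prkag1 -0.221. The causes were not tested. The difference in share kept its sign in 5 of the 6 pairs when each liver was left out, and that of Eif4ebp1 ran from -2.65 to 1.14 points. The SE of the 10 log2 fold changes ran from 0.09 (Mtor) to 0.59 (Ddit4).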

Other observations

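The genes below were picked after their values were seen, and not by a fixed rule on the spread between AL livers. Lpin1, a phosphatidate phosphatase and coactivator that mTOR complex 1 keeps out of the nucleus, had 23.7, 43.2, 56.8 and 63.5 FPKM in CR livers, against 45.3, 12.4 and 4.69 FPKM in AL livers. The AL livers spanned 9.67-fold, and Lpin1 did not pass (log2 fold change 1.65, adjusted p of 0.133, limma). Acacb, the acetyl-CoA carboxylase that limits entry of fatty acids into mitochondria, had 6.67, 9.16, 6.94 and 14.7 FPKM in CR livers, against 22.1, 10.97 and 7.73 FPKM in AL livers. AL liver 1 was the highest of the AL livers for both genes and the lowest of them for Prkag2, Fnip1, Fnip2 and Sesn1. AL liver 3 stood at the other end for all 6. This shared order reflects which genes were picked. Fnip1 and Sesn1 spanned only 1.47-fold and 1.74-fold in AL livers. Trib3 spanned 2.13-fold and did not follow the order (1.56, 3.325 and 2.717 FPKM in AL livers). Sesn1, a stress-induced sestrin that acts on GATOR2, had 5.53, 6.17, 4.82 and 3.94 FPKM in CR livers, against 2.28, 3.11 and 3.98 FPKM in AL livers (log2 fold change 0.71, adjusted p of 0.0532, limma). What sets AL livers 1 and 3 apart in these genes was not tested.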
